A study of Mus musculus with 56 samples.

Results

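The exons described here are the skipped-exon events of 5 mouse genes, Arhgef11, Sec24b, Sirt2, Arhgap33 and Dnajc5, in 11 tables of junction reads. A skipped exon is one that some transcripts of a gene hold and others leave out. The tables list 60 distinct exons of the 5 genes, of 71922 distinct exons in all: 22 of Arhgef11, 14 of Sec24b, 13 of Sirt2, 5 of Arhgap33 and 6 of Dnajc5. The 5 genes were chosen by differences in inclusion between the 2 replicate sets of single tables, so those differences are given as descriptions with no test. Of the 60 exons, 58 reached 20 junction reads per replicate on average in 1 table or more, and 11 of these had a mean inclusion between 0.05 and 0.95 somewhere. At most 3 such exons per gene, those with the widest range over tissues, are described one by one, which makes 10. Exons are called by gene and length in nucleotides (nt).

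The series holds bulk RNA sequencing of 56 mouse samples. Cortex, hippocampus, cerebellum, liver, muscle and testis came from Fmr1 knockout (KO) mice and wild-type (WT) controls, 3 per tissue and genotype. N2a cells, a neuroblastoma line, were treated with an Fmr1 siRNA (siFmr1, 3 samples) or with a control siRNA (siNT, 2 samples), with no gene deleted. In a second N2a experiment, 3 samples per group received an siRNA and a plasmid together by lipid transfection: siNT_pcDNA, siFmr1_pcDNA, siMbnl1_pcDNA, siFmr1_nMBNL1 and siMbnl1_cMBNL1, where pcDNA is a control plasmid and nMBNL1 and cMBNL1 are FLAG-tagged nuclear and cytosolic MBNL1. The sources used here give neither age, strain nor the Fmr1 allele, nor whether N2a samples were separate cultures, so p-values measure the spread between these samples. In the exon tests this spread is taken within replicate sets. Brain libraries were made with another kit and by another party than the libraries of the 3 other tissues and of the first N2a cells. Preparation and tissue therefore cannot be told apart between brain and the rest, and tests were made only within the brain regions and within the other 3 tissues.

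The splicing tables give 2 replicate sets per table, called set 1 and set 2, and do not say which set holds which genotype or treatment. The sets are therefore kept as sets here. Only in the first N2a experiment do the set sizes differ, with 3 replicates in set 1 and 2 in set 2. These sizes match the numbers of siFmr1 and siNT samples. Each replicate held 406597 to 854473 junction reads in the brain tables, 7708536 to 12282115 in liver, muscle and testis, 7506227 to 11581824 in the first N2a experiment and 35906127 to 57090318 in the co-transfection tables. Gene tables held 26264368 to 41384652 counts per brain library and 13230785 to 16268865 per other library. Outside brain, the marker genes of each labelled tissue were high: 5 hepatocyte genes summed to 78900.4 to 106962.8 TPM (gene level scaled to length and library) in liver, 5 muscle fibre genes to 141014.7 to 158840.7 in muscle, and 5 germ cell genes to 59045.6 to 64946.5 in testis. Of the hepatocyte genes the brain table lists only Ttr, at 4.4 to 553.6 TPM in cortex, 18.8 to 11140.8 in hippocampus and 917.4 to 3473.4 in cerebellum, and its part in the brain results was not tested. In N2a cells 4 of 6 neuron genes were listed and summed to 1490.6 to 1974.5 TPM. Fmr1 itself measured 51.98 to 79.31 TPM in WT brain and 14.43 to 21.30 TPM in KO brain, and WT and KO were also separate in liver and testis. In muscle the groups overlapped in TPM (3.99 to 6.09 in WT, 3.21 to 4.33 in KO) but not in CPM (counts scaled by library; lowest WT sample 11.99, highest KO sample 10.31). In the first N2a experiment Fmr1 was 33.98 and 5.66 TPM in the siNT libraries and 6.62, 6.01 and 0.70 in the siFmr1 libraries, so in TPM the library labelled siNT replicate 2 lay among the siFmr1 ones. In CPM it was at 22.4, above the siFmr1 libraries (14.7, 14.7 and 2.13) and below siNT replicate 1 (77.7).

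The 5 genes have separate roles. Arhgef11 (PDZ-RhoGEF) activates the GTPase RhoA downstream of Gα12/13 and plexin-B receptors, and so acts on actin and on axon guidance. Sec24b is a cargo adaptor of the COPII coat, which buds vesicles from the endoplasmic reticulum. Sirt2 is an NAD-dependent deacetylase that acts on tubulin and is abundant in oligodendrocytes. Arhgap33 is a GTPase-activating protein with a sorting-nexin domain, studied mostly in neurons. Dnajc5 (cysteine-string protein alpha) is a chaperone of synaptic vesicles that works with Hspa8 and Sgta. Fmr1 encodes the RNA-binding protein FMRP, and Mbnl1 encodes muscleblind, a splicing regulator that binds the motif YGCY, in which Y is either pyrimidine. Whether an exon is kept or skipped decides which protein, or whether any protein, is made from a transcript.

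The exon sequences on which the results turn are shown first, 5′ to 3′ on the transcript's strand, from the GENCODE M21 transcripts (build GRCm38). Capitals mark YGCY matches (TGCT, TGCC and the same with C as the first letter), and in the Dnajc5 75-nt exon, of which only the start is shown, they mark a stop codon. The Arhgap33 line is the coding part shared by its 83-nt and 110-nt exons.
Arhgef11 120: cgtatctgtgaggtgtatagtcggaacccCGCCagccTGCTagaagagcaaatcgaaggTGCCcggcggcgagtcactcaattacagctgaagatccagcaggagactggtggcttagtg
Arhgef11 129: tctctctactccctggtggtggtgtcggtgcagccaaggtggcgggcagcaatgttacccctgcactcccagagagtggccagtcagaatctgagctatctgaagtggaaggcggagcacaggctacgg
Sec24b 105: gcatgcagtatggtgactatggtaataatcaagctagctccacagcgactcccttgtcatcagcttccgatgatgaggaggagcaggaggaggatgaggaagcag
Sirt2 47: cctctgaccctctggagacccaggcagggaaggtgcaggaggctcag
Arhgap33 coding part: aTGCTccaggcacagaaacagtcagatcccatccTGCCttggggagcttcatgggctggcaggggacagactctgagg
Dnajc5 172: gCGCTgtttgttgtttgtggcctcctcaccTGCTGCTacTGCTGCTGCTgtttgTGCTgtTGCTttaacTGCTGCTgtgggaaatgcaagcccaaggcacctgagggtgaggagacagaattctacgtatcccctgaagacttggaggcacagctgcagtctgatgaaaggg
Dnajc5 75 start: gagggcacTGA

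YGCY was searched in the exons only, on the transcript's strand, with overlapping matches counted. The introns beside them were not analysed here. The Dnajc5 172-nt exon held 10 matches, as a run of TGCT units over the part that encodes the cysteine string (TGC is a cysteine codon). Among 2442 exons within 10 bases of its length, 89.3% held at least 1 match and 0.6% held as many. The Arhgef11 120-nt exon held 3 (26.6% of exons of like length held as many) and the Arhgap33 exons held 2 each (32% and 44.4%). Dnajc5 75 nt held 1, as at least 1 did in 59.8% of its like-length exons. No match was found in the exons of 129 nt and 138 nt of Arhgef11, 105 nt of Sec24b, 47 nt of Sirt2 or 53 nt of Dnajc5, where 41.7% to 84.4% of exons of like length held 1 or more. TGCATG, the Rbfox motif, was in none of the 10 exons and in 1.2% to 4.6% of exons of like length. A match describes the letters and is not a binding site.

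Inclusion is the share of the transcripts spanning a given pair of flanking exons that hold the exon between them. It is taken from the reads across the splice junctions after scaling the inclusion reads by the form lengths. Another flanking pair can give another value for the same exon. Between tissues of 1 library preparation, an exon was called when the limma-moderated quasi-binomial test gave an adjusted p under 0.05 over all exons tested and the means differed by at least 0.1. Between liver and muscle, 4 of 10 tested events of the 5 genes were called, beside 13.4% of all 4280 events tested. Between liver and testis it was 5 of 7 (14.8% of 3927), and between muscle and testis 2 of 9 (18.9% of 4392). No event of the 5 genes was called between cortex and hippocampus (7 tested, 0.798% of all called), cortex and cerebellum (9 tested, 8.69%) or hippocampus and cerebellum (7 tested, 8.24%). With limma on logit inclusion none was called in these 3 pairs either, and 1, 2 and 1 of them had an unadjusted p under 0.05 in the quasi-binomial test. An exon picked for a difference between sets cannot lie at 0 or 1 in that tissue, so the choice of genes bears on these counts.

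**Figure D1:**
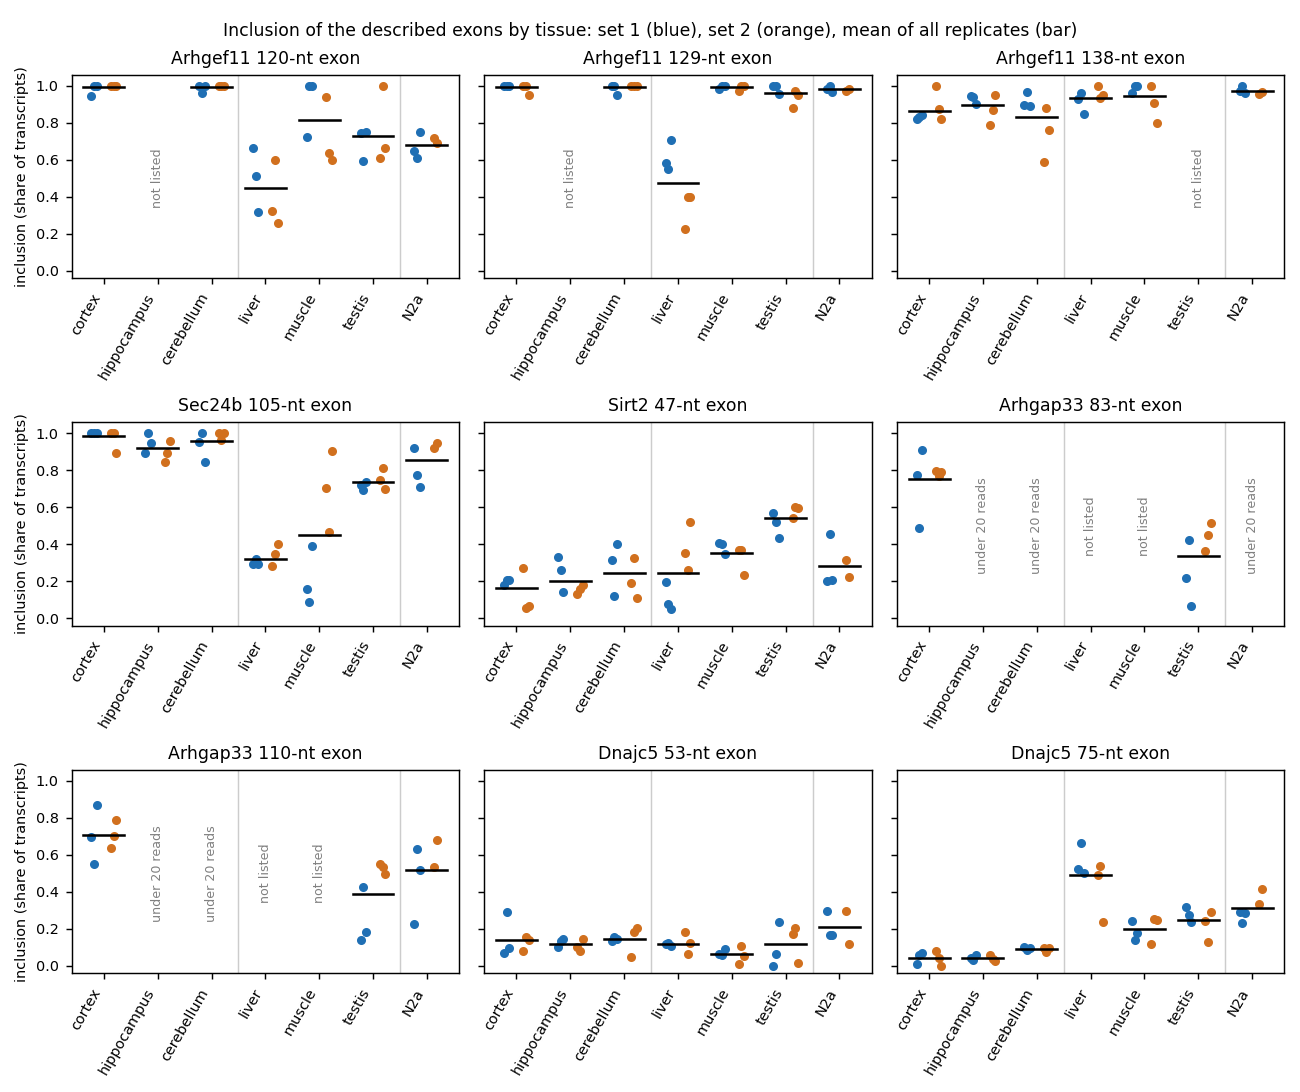
Inclusion (share of transcripts spanning the flanking exons, y axis) of 9 described exons in each tissue and in the first N2a experiment (x axis). Blue points are set 1 replicates, orange points set 2 replicates, and bars the mean of all replicates. The vertical lines separate library preparations or cells. Liver is low for both Arhgef11 exons of 120 and 129 nt (means 0.445 and 0.477) and for Sec24b 105 nt (0.322), and high for Dnajc5 75 nt (0.492).

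Arhgef11 (chromosome 3, plus strand) had an exon of 120 nt at 87695398 to 87695517 and one of 129 nt at 87734424 to 87734552, and liver skipped both far more often than muscle or testis did. Both are coding, and both lengths are multiples of 3. The 120-nt exon is in transcript 201 and skipped in 202, while the 129-nt exon is in both of these protein-coding transcripts. In liver the inclusion of the 129-nt exon ran from 0.224 to 0.708 with a median of 0.473, against 0.970 to 1 (median 1) in muscle and 0.880 to 1 (median 0.963) in testis. No liver replicate reached the lowest replicate of muscle or testis. The means were 0.477 ± 0.171 in liver, 0.992 ± 0.013 in muscle and 0.959 ± 0.045 in testis (SD, n = 6 each). Liver was lower than muscle by a difference of -0.515 (limma-moderated quasi-binomial test, adjusted p 1.39e-14) and lower than testis by -0.482 (2.78e-14), whereas muscle and testis differed by 0.033 (0.197). The test takes its spread within sets, so the gap between the liver sets (means 0.614 and 0.340) is not part of its error.

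The 120-nt exon went the same way with more spread. Liver replicates ran from 0.258 to 0.661 (median 0.418), muscle from 0.597 to 1 (0.831) and testis from 0.593 to 1 (0.703), so liver reached into the low end of both other tissues. Its means were 0.445 ± 0.167, 0.816 ± 0.185 and 0.726 ± 0.15 (SD, n = 6). The test called liver against muscle (-0.370, adjusted p 0.000628) and liver against testis (-0.281, 0.00255), but not muscle against testis (0.089, 0.386). Depth was modest, with 26.5 to 36.2 junction reads per replicate: liver set 1 replicate 1 rested on 14 inclusion and 4 skipping reads, an inclusion of 0.661 with an exact 95% interval of 0.379 to 0.890. Such intervals cover counting error only.

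Cortex and cerebellum kept both exons nearly always. The 120-nt exon had means of 0.990 and 0.993 there and the 129-nt exon 0.992 in each, with at most 1 skipping read in any replicate below 1. In N2a cells the 129-nt exon was as high (0.980 ± 0.013, SD, n = 5) while the 120-nt exon was at 0.682 ± 0.056. The Arhgef11 exon of 138 nt (87698765 to 87698902, coding, a multiple of 3) was the most skipped of the 3 in brain. Its means were 0.864 ± 0.070 in cortex, 0.898 ± 0.063 in hippocampus and 0.829 ± 0.135 in cerebellum, against 0.935 ± 0.051 in liver and 0.945 ± 0.079 in muscle. No pair tested within brain or between liver and muscle was called for it (adjusted p 0.265 to 0.884).

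Sec24b (chromosome 3, minus strand) had 1 alternative exon, of 105 nt at 130020538 to 130020642. It is coding and a multiple of 3, held by transcript 201 and skipped by 203 and 205. Brain kept it in nearly all transcripts, testis in most, and liver in about 1 of 3. Cortex replicates ran from 0.895 to 1 (median 1), hippocampus from 0.842 to 1 (0.920) and cerebellum from 0.843 to 1 (0.981). Testis ran from 0.691 to 0.813 (0.728), muscle from 0.089 to 0.904 (0.427) and liver from 0.282 to 0.400 (0.306). Liver and testis did not overlap, while muscle spanned both.

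Sec24b in testis was also the deepest of these measurements, with 328 junction reads per replicate against 26.3 in muscle and 20 in liver, exactly the minimum tested. The means of 0.322 ± 0.045 in liver and 0.735 ± 0.044 in testis differed by -0.412 (limma-moderated quasi-binomial test, adjusted p 2.64e-08), and muscle (0.451 ± 0.313, SD, n = 6) differed from testis by -0.284 (7.63e-08). Liver and muscle differed by -0.129, which was not called (0.748). The spread in muscle lay between its sets: set 1 replicates were at 0.159, 0.089 and 0.390, and set 2 replicates at 0.702, 0.464 and 0.904, so set 2 overlapped testis and set 1 did not. The test takes its spread within sets, so this gap is not part of its error.

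Sirt2 (chromosome 7, plus strand) had a 47-nt exon at 28767632 to 28767678 that testis held in more transcripts than liver or muscle. Its length leaves a remainder of 2 on division by 3. It is coding in transcript 201, whose start codon begins upstream at 28766852. Transcripts 202 and 209 skip it, and 202 starts translation downstream, from 28771859. Testis replicates ran from 0.433 to 0.601 (median 0.557), muscle from 0.234 to 0.408 (0.369) and liver from 0.051 to 0.521 (0.228). Testis lay wholly above muscle, and liver overlapped both.

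For this Sirt2 exon the means were 0.544 ± 0.063 in testis, 0.356 ± 0.064 in muscle and 0.243 ± 0.177 in liver (SD, n = 6). The test called liver against testis (-0.301, limma-moderated adjusted p 5.57e-09) and muscle against testis (-0.188, 7.09e-07). Liver against muscle was called too (-0.113, 0.025), but not with limma on logit inclusion (0.136), nor without liver set 1 replicate 1, 2 or 3 or muscle set 1 replicate 1 or 2 (0.0582 to 0.192). The gap between the liver sets (means 0.108 and 0.378) is not part of the error of these tests, which is taken within sets. In brain the exon was mostly skipped: 0.165 ± 0.087 in cortex, 0.202 ± 0.079 in hippocampus and 0.244 ± 0.120 in cerebellum. Cortex and cerebellum differed by -0.079 (0.141), and the pair was called without length scaling (-0.105, 0.0493) and without cerebellum set 2 replicate 3 (-0.107, 0.0426). First-experiment N2a cells were at 0.282 ± 0.108 (n = 5).

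Arhgap33 (chromosome 7, minus strand) had exons of 83 nt (30534103 to 30534185) and 110 nt (30534103 to 30534212) that share all but their 5′ end and count the same skipping reads, so they are not independent. Both hold the annotated start codon, at 30534178 to 30534180, and the 78 coding bases from 30534103 to 30534180. Transcript 203 skips them and starts at 30534929 to 30534931. Cortex replicates of the 83-nt exon ran from 0.486 to 0.907 (median 0.781) and testis replicates from 0.069 to 0.513 (0.394). The 110-nt exon ran from 0.550 to 0.867 (0.698) in cortex and from 0.142 to 0.549 (0.463) in testis, without overlap between the tissues.

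Means for the 83-nt exon of Arhgap33 were 0.753 ± 0.141 in cortex and 0.340 ± 0.166 in testis, and for the 110-nt exon 0.707 ± 0.111 and 0.389 ± 0.182 (SD, n = 6). Cortex and testis were prepared differently, so these values stand side by side with no test. No pair of equally prepared tissues had enough reads: hippocampus gave 18 and cerebellum 1.83 reads per replicate for the 83-nt exon, and liver and muscle list neither exon. N2a cells held the 110-nt exon at 0.518 ± 0.178 (n = 5).

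Dnajc5 (chromosome 2, plus strand) had a 75-nt exon at 181548926 to 181549000 that was highest in liver among the tissues. Liver was the lowest listed tissue for the Arhgef11 exons of 120 and 129 nt and for Sec24b 105 nt. The 75-nt exon occurs only in transcript 204, annotated for nonsense-mediated decay, whose stop codon (the capitals in the printed start) ends at 181548936. Liver replicates ran from 0.235 to 0.663 (median 0.511), muscle from 0.119 to 0.254 (0.212) and testis from 0.132 to 0.319 (0.260). All but 1 of the liver replicates lay above the other 2 tissues. The means were 0.492 ± 0.141, 0.198 ± 0.060 and 0.250 ± 0.065 (SD, n = 6). Liver exceeded muscle by 0.294 (limma-moderated quasi-binomial test, adjusted p 4.26e-07) and testis by 0.242 (3.9e-05), and muscle and testis differed by -0.051 (0.387).

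Brain nearly always skipped this 75-nt exon. Cortex ran from 0.000 to 0.080 (mean 0.044 ± 0.033), hippocampus from 0.029 to 0.058 (0.043 ± 0.012) and cerebellum from 0.073 to 0.104 (0.092 ± 0.011). Each cerebellum replicate lay above each hippocampus replicate. The difference of -0.049 between hippocampus and cerebellum had an adjusted p of 0.0129 (limma-moderated quasi-binomial test) but stayed under the 0.1 asked of a call, and that between cortex and cerebellum was -0.049 as well (0.0591). N2a cells held the exon at 0.313 ± 0.069 (n = 5).

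The Dnajc5 53-nt exon, untranslated in transcript 203 and skipped in the other protein-coding ones, had means from 0.064 ± 0.032 in muscle to 0.146 ± 0.054 in cerebellum, and no tissue pair was called (adjusted p 0.133 to 0.999). The coding 172-nt exon (181548670 to 181548841), whose length leaves a remainder of 1, was listed with its main pair of flanking exons in muscle and 2 co-transfection tables only. In muscle it stood at 0.974 ± 0.026 (SD, n = 6), with 0 to 5 skipping reads per replicate. A replicate with 119 inclusion and 0 skipping reads there allows a skipping share of up to 4.80%.

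**Figure D2:**
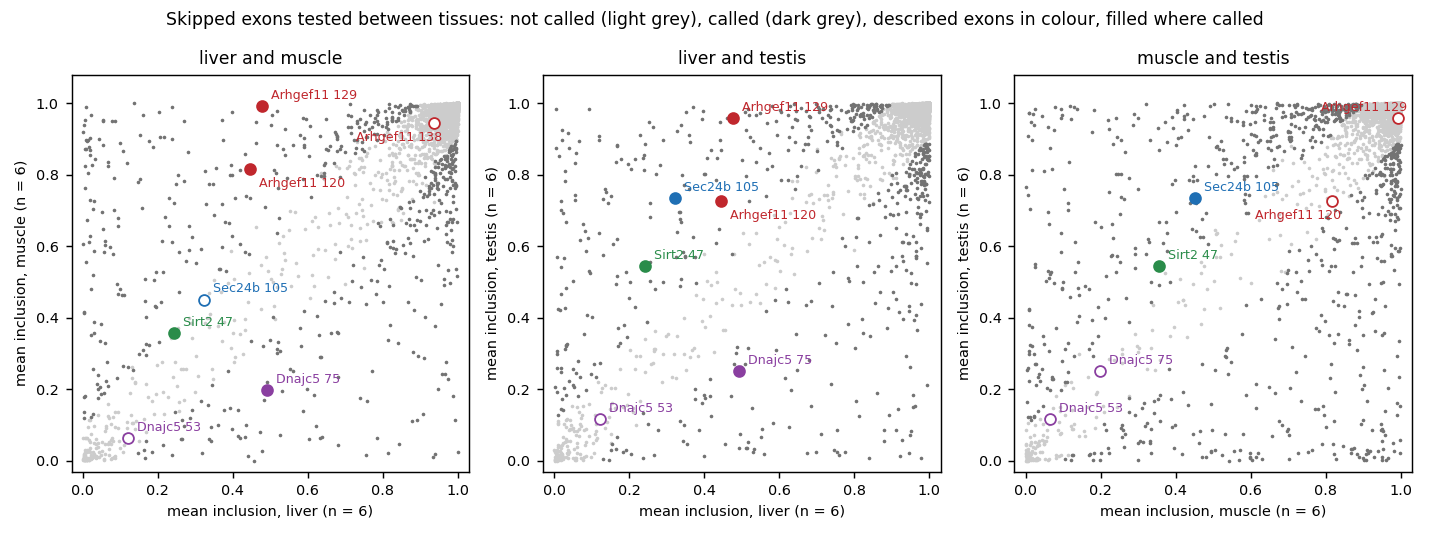
Mean inclusion of each tested skipped exon in liver against muscle, liver against testis and muscle against testis (axes: mean inclusion, n = 6 replicates per tissue); light grey points were not called, dark grey points were called, and described exons are coloured by gene and filled where called. Arhgef11 129 nt stands at 0.477 in liver and 0.992 in muscle, and Dnajc5 75 nt lies on the other side of the diagonal (0.492 and 0.198).

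Set differences within a tissue are described next, for the exons where they were large. By the authors' deposited false discovery rate (FDR) under 0.05 and a difference of at least 0.1, the 5 genes had 0 events in cortex, hippocampus, cerebellum and N2a, 2 in liver, 1 in muscle and 1 in testis. The share of all events called so was 0.238%, 0.0612%, 0.0322% and 0.593% in the first 4 tables and 0.722%, 0.912% and 0.394% in the last 3. Among events with 20 reads per replicate, those whose sets did not overlap numbered 1 in cerebellum, 2 in liver, 1 in muscle, 1 in testis, 1 in N2a and 0 in cortex and hippocampus. The shares of all events that did not overlap were 3.88%, 4.62%, 4.68%, 4.86%, 7.37%, 3.78% and 4.30% in that order. Since set differences chose the genes, nothing is read from these counts.

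In liver, the Sirt2 47-nt exon was at 0.196, 0.078 and 0.051 in set 1 and at 0.355, 0.260 and 0.521 in set 2. All of set 2 lay above set 1, with a difference of -0.270 (set 1 minus set 2). The Arhgef11 129-nt exon in liver was at 0.585, 0.548 and 0.708 in set 1 and at 0.224, 0.398 and 0.398 in set 2, a difference of 0.274 in the opposite direction. In muscle and testis the Arhgef11 exon differed by 0.004 and 0.051 and the Sirt2 exon by 0.063 and -0.074. Whether set differences differ between tissues was not tested.

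Muscle had its widest gap in Sec24b, with set means of 0.212 and 0.690 for the 105-nt exon (-0.478). The same exon differed by -0.042 between the sets in liver and by -0.038 in testis. Testis had its widest in Arhgap33: the 110-nt exon was at 0.142, 0.426 and 0.182 in set 1 and at 0.549, 0.536 and 0.499 in set 2, a difference of -0.278. Its 83-nt form was at 0.217, 0.424 and 0.069 against 0.364, 0.45 and 0.513, and these overlapped. In cerebellum the Arhgef11 138-nt exon was at 0.893, 0.964 and 0.891 against 0.586, 0.878 and 0.763, a gap of 0.173 without overlap. It was 0.095 without set 2 replicate 1 and 0.109 without length scaling.

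First-experiment N2a cells had 3 replicates in set 1 and 2 in set 2, which match in number the siFmr1 and the siNT samples. The Dnajc5 75-nt exon was at 0.293, 0.232 and 0.288 against 0.336 and 0.418 (-0.106, no overlap), a difference that was -0.065 without set 2 replicate 2. The Arhgap33 83-nt exon did not overlap either, at 0.205, 0.415 and 0.217 against 0.525 and 0.563, but from only 14.6 reads per replicate. For the Sec24b 105-nt exon the replicates were at 0.921, 0.776 and 0.712 against 0.918 and 0.947, which overlapped.

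The 4 co-transfection tables hold 5 distinct sets, since reads of shared events were identical in some sets (100% of 38351 to 41286 events with at least 100 reads). They are called A to E here, and the tables compare A with B, C with B, D with A and E with B (set 1 named first). Sets C, D and E occur only in the tables that the labels list on the siMbnl1_pcDNA, siFmr1_nMBNL1 and siMbnl1_cMBNL1 samples, in that order, and the table of A and B is listed on siNT_pcDNA and siFmr1_pcDNA samples. Comparisons here share sets, so the sets' own values are given side by side.

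The clearest pattern among them was in Dnajc5, where skipping of the 172-nt exon was read in sets D and E and not at all in A and B. Set D was at 0.884, 0.867 and 0.870 from 779, 873 and 604 inclusion and 51, 67 and 45 skipping reads. Set E was at 0.887, 0.836 and 0.904 from 689, 724 and 776 inclusion and 44, 71 and 41 skipping reads. Sets A and B had 0 skipping reads in all 6 replicates beside 648 to 948 inclusion reads, which allows a skipping share of at most 0.629% to 0.917% per replicate.

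The set means for Dnajc5 172 nt were 0.874 in D and 0.876 in E against 1, differences of -0.126 and -0.124. Without length scaling both were -0.067, and with all versions of the exon summed they were -0.065 and -0.080. This is the exon whose printed sequence holds the run of TGCT units, and whether that run bears on the skipping was not tested. The event was not listed in the table of C and B, so set C has no value.

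The same skipping reads count against the Dnajc5 75-nt exon when it is paired with the long junction that leaves out both exons. In that version set D was at 0.517, 0.524 and 0.571 and set E at 0.511, 0.332 and 0.606, while A and B were at 1. With the short junction, which leaves out only the 75-nt exon, set A was at 0.357, 0.286 and 0.275, B at 0.244, 0.232 and 0.263, C at 0.261, 0.256 and 0.227, D at 0.251, 0.290 and 0.313, and E at 0.246, 0.223 and 0.248. On that measure A lay above B, C and E and overlapped D, and D lay above E.

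**Figure D3:**
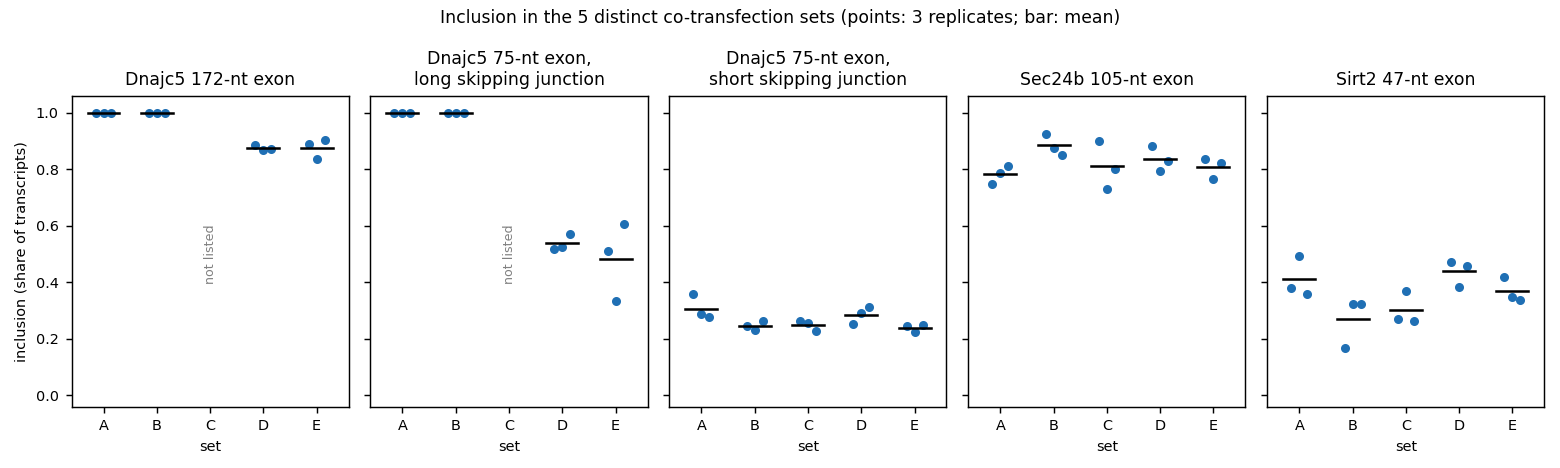
Inclusion (share of transcripts spanning the flanking exons, y axis) of Dnajc5, Sec24b and Sirt2 exons in the 5 distinct co-transfection sets A to E (x axis). Points are 3 replicates and bars their mean. Dnajc5 172 nt is at 1 in A and B and between 0.836 and 0.904 in D and E, while the 75-nt exon with its short junction stays between 0.223 and 0.357 in every set.

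Sec24b 105 nt was lower in set A (0.749, 0.786 and 0.811) than in B (0.924, 0.876 and 0.851) by a difference of -0.101. Set E, at 0.837, 0.765 and 0.821, was also below B (-0.076). Sets C (0.899, 0.728 and 0.801) and D (0.883, 0.793 and 0.829) spanned the gap. Sirt2 47 nt went the other way, with A at 0.381, 0.491 and 0.357 and B at 0.166, 0.322 and 0.322 (0.140, and 0.088 without B replicate 1). D was at 0.472, 0.384 and 0.458, C at 0.269, 0.370 and 0.262, and E at 0.419, 0.349 and 0.336.

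The Arhgef11 exons that liver skipped had lower means in B than in A. The 129-nt exon was at 0.975, 1 and 1 in A and 1, 0.864 and 0.898 in B, which overlap (0.071, and 0.043 without B replicate 2 or 0.111 without B replicate 1). It was at 0.850, 0.804 and 0.963 in C, at 0.988, 1 and 1 in D, and at 0.850, 0.812 and 0.896 in E. The 120-nt exon had its lowest replicates in C (0.480, 0.270 and 0.632), E (0.344, 0.323 and 0.398) and B (0.399, 0.566 and 0.437), and higher ones in A (0.526, 0.775 and 0.711) and D (0.577, 0.650 and 0.838). The means of both exons ran in the same order, D, A, B, C and E from high to low (0.688, 0.671, 0.467, 0.461 and 0.355 for the 120-nt exon). The 138-nt exon was at 0.974, 0.976 and 0.978 in E and 0.812, 0.982 and 0.893 in B (0.080, and 0.039 without B replicate 1 or 0.124 without B replicate 2). Of the Arhgap33 exons, the 83-nt one was lower in C (0.385, 0.329 and 0.261) than in B (0.423, 0.572 and 0.413), and the other comparisons of both overlapped.

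Of the events of the 5 genes with 20 reads, 3 of 52 in the comparison of A with B had a deposited FDR under 0.05 and a difference of at least 0.1, 1 of 48 in C with B, 2 of 67 in D with A and 2 of 67 in E with B. The background was 1.78%, 1.94%, 1.09% and 1.98% of all events. Without overlap between sets were 5, 5, 10 and 15 of them, beside 7.39%, 7.64%, 8.11% and 11.1% of all events. As above, these counts follow from how the genes were chosen.

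Gene levels of the 5 genes were compared between brain regions, which share 1 gene table. In bulk tissue, fewer cells of a type and less RNA per cell cannot be told apart. Arhgap33 differed most. It measured 64.64 to 72.96 TPM in cortex, 42.26 to 49.21 in hippocampus and 8.76 to 10.15 in cerebellum, with no overlap. Its log2 differences were 0.59 ± 0.041 between cortex and hippocampus (SE; edgeR quasi-likelihood test, adjusted p 1.29e-09), 2.95 ± 0.045 between cortex and cerebellum (1.93e-19) and 2.36 ± 0.045 between hippocampus and cerebellum (2.77e-18). Of all 15504 genes tested, 62.1%, 78.4% and 78.3% were called in these 3 pairs. The 5 markers of cortical and hippocampal excitatory neurons summed to 2057.0 to 2939.5 TPM in cortex, 3251.5 to 3855.0 in hippocampus and 513.3 to 627.3 in cerebellum, and their part in the Arhgap33 difference was not tested.

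Arhgef11 ran the other way in brain. It was 39.62 to 47.12 TPM in cortex, 47.99 to 52.11 in hippocampus and 59.39 to 61.68 in cerebellum, each region above the one before (log2 -0.21 ± 0.034, edgeR adjusted p 4e-05, against hippocampus, and -0.38, 1.23e-08, against cerebellum, from cortex). Sec24b was higher in cerebellum (47.37 to 54.08 TPM) than in cortex (37.21 to 41.96; log2 -0.22 ± 0.041, 8.79e-05) or hippocampus (35.74 to 40.44; -0.27, 8.97e-06). Cortex and hippocampus did not differ beyond their spread for Sec24b (0.05, 0.297).

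Sirt2 and Dnajc5 levels were nearly even over brain. Sirt2 was 201.72 to 242.61 TPM in the 18 brain samples, and no pair was called (edgeR adjusted p 0.627 to 0.838). The 9 oligodendrocyte markers also overlapped, at 5487.0 to 8025.3 TPM in cortex, 5194.8 to 6795.6 in hippocampus and 6115.0 to 7490.3 in cerebellum, with KO below WT in hippocampus. Dnajc5 was 223.91 to 272.11 TPM. It was called only between cortex and hippocampus (0.11 ± 0.036, edgeR adjusted p 0.0171), and not without cortex WT replicate 1 (0.0515) or hippocampus KO replicate 3 (0.0516). Between cortex and cerebellum (0.06, 0.121) it was called by DESeq2 (0.0457) and without cortex WT replicate 3 (0.0429).

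Tables of the other tissues were made separately, so levels across them are set side by side only. Arhgef11 was lower outside brain, at 8.95 to 12.77 TPM in liver, 8.50 to 11.44 in muscle and 9.60 to 11.33 in testis. Sec24b had its highest level in testis (82.91 to 93.83 TPM) and its lowest in liver (5.80 to 11.27), with muscle between 9.30 and 14.03. Sirt2 was at 39.88 to 47.41 TPM in liver, 92.94 to 107.03 in muscle and 99.76 to 111.74 in testis. The last pair of ranges overlapped. Arhgap33 was at 25.5 to 38.39 TPM in testis, at 0.12 to 0.39 in muscle, and not listed in liver. Dnajc5 was at 18.28 to 26.98 TPM in liver, 25.18 to 33.03 in muscle and 12.67 to 16.76 in testis, each below the lowest brain sample.

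**Figure D4:**
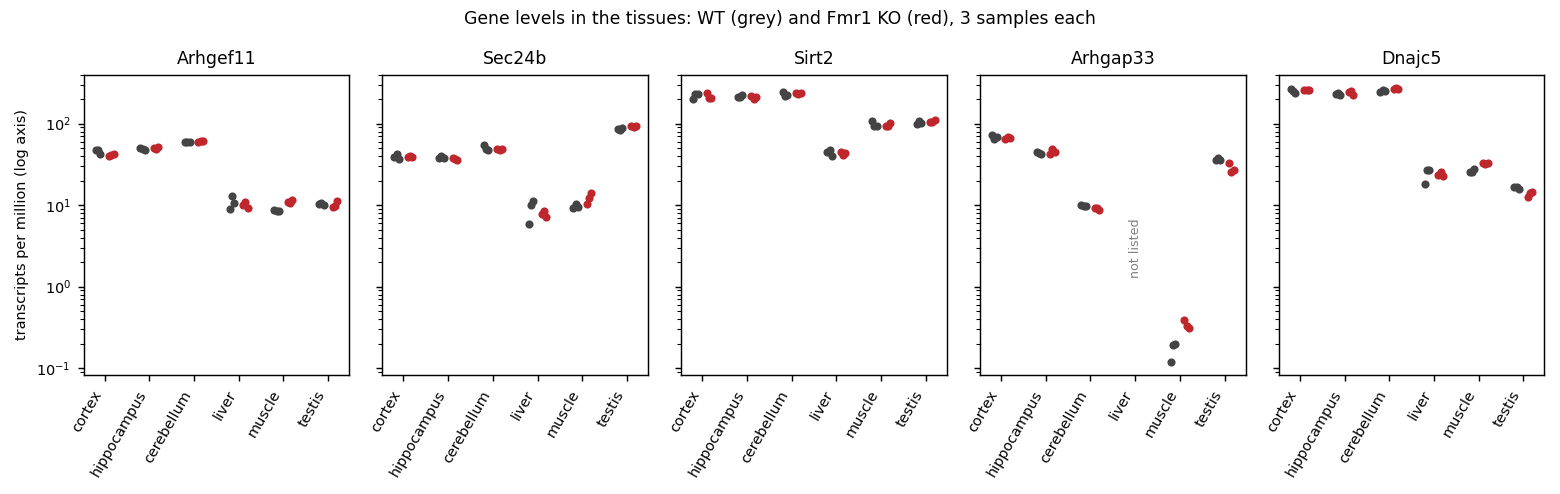
Gene level in TPM (y axis, log scale) of the 5 genes in each tissue (x axis; grey points are WT samples and red points Fmr1 KO samples, 3 each). Arhgap33 lies at 64.64 to 72.96 in cortex, 8.76 to 10.15 in cerebellum and 0.12 to 0.39 in muscle, and Sec24b is highest in testis.

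Between genotypes, log2 differences of the 5 genes in the tissues ran from -0.363 (Arhgap33 in testis) to 0.797 (Arhgap33 in muscle, at few counts). The genes were picked by inclusion differences between sets of the same samples, so these contrasts are descriptions. In testis Arhgap33 was at 35.89, 38.39 and 35.84 TPM in WT and 33.07, 25.50 and 27.22 in KO, a log2 difference of -0.36 ± 0.077 (SE, edgeR fit) without overlap. Dnajc5 in testis was at 16.76, 16.61 and 15.85 in WT and 12.67, 14.12 and 14.39 in KO (-0.25 ± 0.082), again without overlap. The 2 of 6 neuron markers listed in testis summed to 32.8 to 45.4 TPM in WT and 28.6 to 32.4 in KO, and their part was not tested. Of all genes in testis, 20.6% had groups that did not overlap.

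In muscle, where 31.4% of genes did not overlap, Sirt2 differed by -0.25 ± 0.099 and Arhgef11 by 0.13 ± 0.088 in counts scaled by library, and Arhgap33 by 0.80 ± 0.389 at a level of 5 to 15 counts. In TPM the Sirt2 groups overlapped (107.03, 94.11 and 94.5 in WT, 92.94, 94.76 and 102.77 in KO). For Arhgef11 the TPM were 8.78, 8.51 and 8.50 in WT and 10.88, 10.66 and 11.44 in KO. Dnajc5 in muscle did not overlap in TPM (25.18, 25.80 and 27.75 in WT, 32.52, 32.14 and 33.03 in KO) but did in scaled counts (0.09 ± 0.083). The 5 microglia markers summed to 41.0 to 45.8 TPM in WT muscle and 85.6 to 93.9 in KO muscle, and their part in these differences was not tested.

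In cerebellum (14.7% of genes) Dnajc5 differed by 0.12 ± 0.044 and Arhgef11 by 0.05 ± 0.044 without overlap. Arhgap33 did not overlap there in TPM (10.15, 9.85 and 9.63 in WT, 9.33, 9.14 and 8.76 in KO) but did in scaled counts (-0.09 ± 0.074). The 4 endothelial markers summed to 104.9 to 117.1 TPM in WT cerebellum and 122.7 to 128.3 in KO, and their part was not tested. The 5 granule cell markers were also separate (3498.9 to 3639.5 in WT, 3642.7 to 3713.7 in KO). In testis Sec24b did not overlap in TPM (82.91 to 88.74 in WT, 90.3 to 93.83 in KO) but did in scaled counts. All 5 genes overlapped in cortex (26.0% of genes did not), hippocampus (18.8%) and N2a (7.82%), as did the 4 listed in liver (17.3%).

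In co-transfected N2a cells, levels are the authors' normalized counts. Arhgef11 was at 833.5, 1067.9 and 1038 with siNT_pcDNA, and higher with siFmr1_pcDNA at 1504.1, 1594.7 and 1400.6. It was lower with siMbnl1_pcDNA at 612.5, 604.9 and 760.2. With the MBNL1 plasmids it was at 1198.9, 955.3 and 1029.2 (siFmr1_nMBNL1) and at 947.9, 977.6 and 970.4 (siMbnl1_cMBNL1), both overlapping the control range. Log2 differences from siNT_pcDNA, whose samples all 4 comparisons share, were 0.62 ± 0.111 (SE, limma fit), -0.57 ± 0.111, 0.12 ± 0.111 and -0.01 ± 0.111 in that order.

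Sec24b was lower than with siNT_pcDNA (3431.7, 4078 and 3720.2) in all 4 other groups without overlap. It was at 2574.1, 2488.5 and 2312.5 with siFmr1_nMBNL1 and at 3145.2, 3416.8 and 3301.8 with siMbnl1_cMBNL1, log2 differences of -0.60 and -0.18 ± 0.086 (SE, limma fit). With siFmr1_pcDNA and siMbnl1_pcDNA the differences were -0.34 and -0.52. Arhgap33 stood apart only with siFmr1_nMBNL1 (1552.7, 1705.8 and 1561 against 1732.7, 2600.7 and 2464; -0.48 ± 0.118).

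Dnajc5 ranged from 4096.8 to 4640.6 and Sirt2 from 1655.9 to 2256.4 over the 15 samples. Of these, Dnajc5 with siFmr1_nMBNL1 (-0.09 ± 0.054) was the only one without overlap. Of all 16242 genes, 43.1% had groups that did not overlap with siFmr1_pcDNA, 44.9% with siFmr1_nMBNL1, 37.4% with siMbnl1_pcDNA and 39.6% with siMbnl1_cMBNL1. Fmr1 was at 2818.7 to 3604.3 with siNT_pcDNA and 583.4 to 611.8 with siFmr1_pcDNA, and Mbnl1 at 3759.4 to 5016.8 with siNT_pcDNA and 1408.4 to 1538.4 with siMbnl1_pcDNA.

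**Figure D5:**
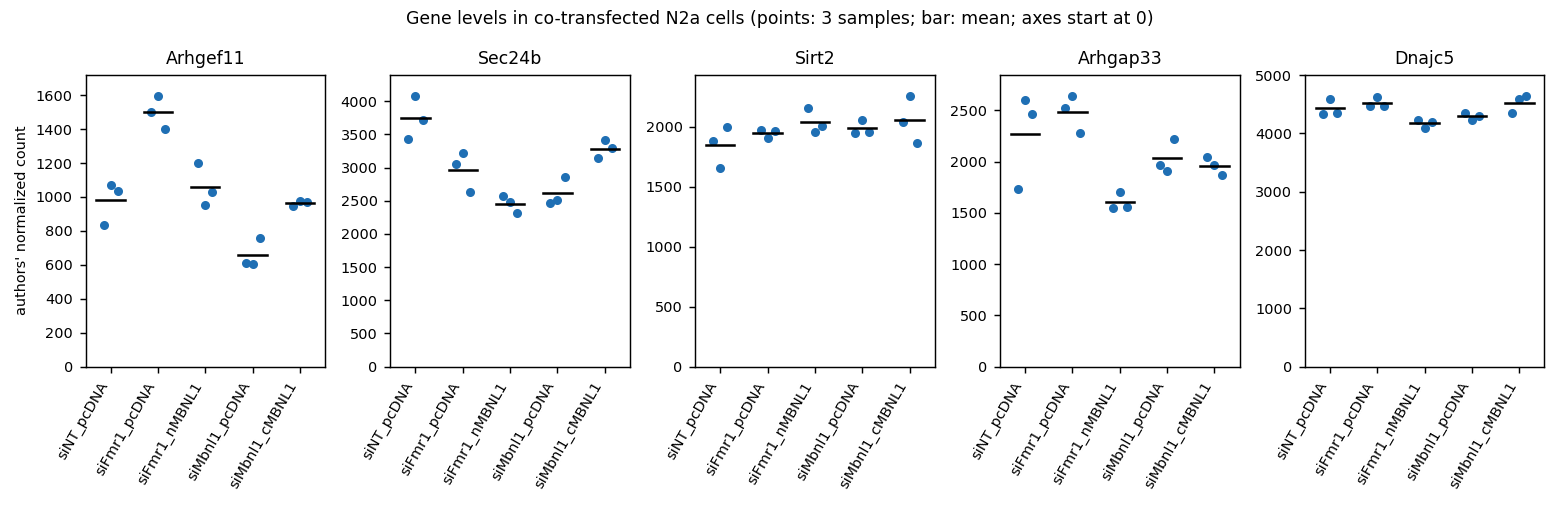
Authors' normalized counts (y axis, starting at 0) of the 5 genes in the 5 co-transfection groups (x axis; points are 3 samples, bars their mean). Arhgef11 reaches 1400.6 to 1594.7 with siFmr1_pcDNA and falls to 604.9 to 760.2 with siMbnl1_pcDNA, while Dnajc5 stays between 4096.8 and 4640.6.

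Partner genes of each member were counted between cortex and cerebellum with the edgeR test, beside the 78.4% of all genes called. Of 23 tested genes of RhoA signalling around Arhgef11, 7 were higher and 11 lower in cortex (median log2 difference -0.06). Kalrn, an exchange factor of dendritic spines, was higher (3.44), the receptor Plxnb2 lower (-1.92), and Rhoa itself even (0.00, adjusted p 0.983). Of 19 COPII genes around Sec24b, 9 were higher and 8 lower (median 0.07). Among the paralogs of the Sec24 adaptor, Sec24d was higher (0.63) and Sec24a and Sec24c lower (-0.39 and -0.31).

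Of 12 sirtuin, NAD and tubulin acetylation genes, 3 were higher and 6 lower in cortex (median -0.22), among them the NAD synthase Nmnat3 (1.29) and the deacetylase Sirt1 (-0.68). For 14 GTPase-activating proteins and partners of Arhgap33, 5 were higher and 8 lower (median -0.20). The paralog Arhgap32 was higher (2.08), as was the sorting receptor Sort1 (1.39), and Srgap2 was lower (-1.50). Of 13 genes of the Dnajc5 chaperone and the synaptic vesicle, 7 were higher and 4 lower (median 0.13). The chaperone partners moved apart, Hspa8 by 0.17 and Sgta by -0.26, and the vesicle fusion genes Stx1a and Syt1 were higher by 6.70 and 1.89.

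Skipped exons of these partner genes did differ between brain regions in places. In cortex against cerebellum 1 of 8 events of the Arhgap33 list and 2 of 11 of the Dnajc5 list were called (limma-moderated quasi-binomial test, beside 8.69% of all events), and 0 of 2, 5 and 2 in the other lists. An exon of Arhgap44, an Arhgap33 relative, was at 0.343 in cortex and 0.866 in cerebellum (-0.523, adjusted p 4.74e-38). An exon of Dnm1, an endocytic GTPase of the Dnajc5 list, was at 0.639 in cortex and 0.907 in cerebellum (-0.268, 1.64e-14). In hippocampus against cerebellum, 1 of 9 events of the Arhgap33 list and 4 of 12 of the Dnajc5 list were called, beside 8.24% of all events. In the other lists it was 0 of 5, 8 and 1. An exon of Snap25, whose protein is a client of the Dnajc5 chaperone, was at 0.845 in hippocampus and 0.976 in cerebellum (-0.131, 3.09e-127).

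Exons of other genes with the most similar tissue pattern were sought among 772 events with 20 reads in all 6 tissues, by Euclidean distance of mean inclusion over the 6 tissues. Sec24b 105, Sirt2 47 and the 75-nt and 53-nt exons of Dnajc5 met that depth. The closest to Sec24b 105 was a 54-nt exon of App (distance 0.13), at 0.978, 0.976 and 0.967 in cortex, hippocampus and cerebellum and 0.402, 0.508 and 0.802 in liver, muscle and testis. Exons of Pkp4 (0.173) and Atxn2 (0.179) followed. Sirt2 47 had no match that near, the closest being exons of Ranbp3 (0.255), Hnrnpab (0.265) and Ganab (0.266). Among those nearest to Dnajc5 75 were exons of Opa1 (0.205) and Ndufs1 (0.218). For Dnajc5 53 they were Hnrnpk (0.084), 3830406C13Rik (0.1) and U2af1 (0.127).

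The remaining exons of the 5 genes with 20 reads were nearly constant between their most-read flanking exons. There they were kept at 0.915 to 1 in every table, except a Dnajc5 exon of 80 nt that was skipped almost always (0.010 to 0.043). That exon (181540537 to 181540616) varied more when it followed the 53-nt exon. In that version set B was at 0.163, 0.161 and 0.138, above A (0.032, 0.055 and 0.021) and C (0.031, 0.074 and 0.053), and D and E had means of 0.068 and 0.077. This is 1 of the 3 called events of A with B and the only called event of C with B. All 67 values of such other versions, table by table, ran from 0.039 to 0.999. Closest to the limits of the description were Arhgef11 127 nt, inside at a lowest inclusion of 0.915 but with a narrower range than 3 other exons of its gene, and, outside, Sec24b 111 nt (0.954), Arhgef11 213 nt (0.958) and Dnajc5 80 nt (0.043). Only some of the 48 such exons could be tested in any pair of tissues. These were Arhgef11 127 nt and 91 nt, Sirt2 56 nt, 77 nt and 130 nt and Dnajc5 80 nt, and none was called. The rest were tested in no pair.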

How the data were processed

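Splicing tables were deposited by the authors as junction reads in the column layout of rMATS, with form lengths, an inclusion difference and a p-value based FDR per event, and their other values, read counts and lengths, are as in the file headers. Gene tables held read counts and TPM that the authors deposited, and the co-transfection table held a signal, the authors' normalized counts, whose method and original depth are not stated. The submitters' processing notes name CASAVA, FastQC 0.11.8, Trimmomatic 0.39, Bowtie2 2.3.5, STAR 2.6.1, RSEM 1.3.1 and DESeq2 1.16.1 with GRCm38 and mm10, without roles. Neither the rMATS version nor the annotation is stated there. Inclusion recomputed from junction reads matched the deposited difference within 0.002 in 100% of events of all 11 tables. In the muscle table, 4 per-sample columns matched no sample and were not used, and 4 of 23091 rows of the normalized table had repeated identifiers and were removed.

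Events sharing a skipped exon were joined, and the version with the most junction reads stands for the exon. Named exons had 20 reads and a mean inclusion of 0.05 to 0.95 in at least 1 table (at most 3 per gene, by widest range over tissues), and like exons were the 3 nearest. Members and gene lists were chosen with earlier results of these data known. Tissues were compared with a quasi-binomial F test per event with a minimum of 20 reads per replicate, dispersion within sets moderated by limma 3.58.1 and not under 1, and Benjamini-Hochberg adjustment. Brain gene levels were tested with edgeR 4.0.16 (TMM, filterByExpr, all 18 samples). The normalized values were fitted with limma on log2(value + 1) with a minimum mean of 1. R 4.3.3, Python 3.11.15, pandas 2.3.3, numpy 2.4.6 and scipy 1.17.1 were used, and DESeq2 1.42.0 as an alternative. Tests were checked on simulated data. Sequences and annotation come from GENCODE M21 (GRCm38), with positions counted from 1. Exact 95% binomial intervals and limits of 3 counts cover counting error only. Alternatives were other read minimums, no length scaling, summed versions, other tests and scalings, a replicate block and leaving out each replicate. Some results are not reported here.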

Additional observations from a re-analysis of the deposited data

Results flagged for a closer look

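Of 67 groups of 5 or 6 replicates, 9 had a replicate far from the rest by Dixon's criterion, which chance meets in about 1 in 20 groups of freely varying values. In 5 of the 9 the other replicates were all at the ceiling of 1, where any single departure meets the criterion, so that rate does not apply to them. In cortex these were Arhgef11 120 nt at 0.943 (set 1 replicate 1, 1 skipping read, the others at 1), Arhgef11 129 nt at 0.95 (set 2 replicate 3, 1 skipping read), Sec24b 105 nt at 0.895 (set 2 replicate 3, 2 skipping reads), Arhgef11 138 nt at 1.0 (set 2 replicate 1, the others at 0.818 to 0.875) and Arhgap33 83 nt at 0.486 (set 1 replicate 2, the others at 0.769 to 0.907). In cerebellum they were Arhgef11 120 nt at 0.958, Arhgef11 129 nt at 0.951 and Sec24b 105 nt at 0.843 (set 1 replicate 3, the others at 0.951 to 1). In muscle it was Sirt2 47 nt at 0.234 (set 2 replicate 3, the others at 0.350 to 0.408).

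Arhgap33 was higher in KO muscle (0.797 on the log2 scale) and lower in KO testis (-0.363), each without overlap between genotypes. Dnajc5 was higher in KO cerebellum (0.115) and lower in KO testis (-0.253). These tissues are in separate tables, and the difference between them was not tested.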

How the results depend on the processing

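No paired analysis was possible because the junction tables give no replicate numbers. For gene levels, same-numbered samples did not deviate together in all pairs (correlations -0.227 to 0.229). A replicate block gave 9635, 12205 and 12138 genes between cortex and hippocampus, cortex and cerebellum, and hippocampus and cerebellum. The main fit gave 9631, 12152 and 12140 genes, and no call of a described gene changed. The exon counts moved by over 1.5 times with a minimum of 10 reads (32 between cortex and hippocampus), with limma on logit inclusion (3 there and 142 between cortex and cerebellum), and with a minimum of 50 reads, which leaves fewer exons: 106 (cortex and cerebellum), 113 (hippocampus and cerebellum), 241 (liver and muscle), 236 (liver and testis) and 382 (muscle and testis). Without 1 replicate they were 16 to 26, 193 to 224 and 216 to 242 in the brain pairs (cortex and hippocampus first) and 547 to 577, 572 to 600 and 801 to 833 in the others; gene counts were 9031 to 9765, 11870 to 12231 and 11860 to 12289. Beside the Sirt2 and Dnajc5 values given above, no call of a described exon or gene was lost where the alternative gave a value; at the minimum of 50 reads, Arhgef11 120 and Sec24b 105 could not be tested in liver or muscle, nor Dnajc5 75 in testis. Signs turned only near 0 and without a call: Dnajc5 75 between cortex and hippocampus without length scaling (-0.001), Dnajc5 53 there with versions summed (-0.002), and the Sirt2 level between hippocampus and cerebellum with RLE or DESeq2 (0.009 in both). Without 1 replicate they did so for Dnajc5 53 (-0.010 to 0.035 between cortex and hippocampus, -0.037 to 0.008 cortex and cerebellum, -0.019 to 0.029 liver and testis), Dnajc5 75 (-0.007 to 0.009, cortex and hippocampus), between cortex and cerebellum for Arhgef11 120 (-0.010 to 0.007), Arhgef11 129 (-0.008 to 0.008), Arhgef11 138 (-0.013 to 0.062) and Sec24b 105 (0.000 to 0.040), and for Arhgef11 138 between liver and muscle (-0.039 to 0.008). The Sirt2 level ran from -0.009 to 0.054 (cortex and hippocampus), -0.025 to 0.038 (cortex and cerebellum) and -0.035 to 0.003. In the first N2a experiment, leaving out siNT replicate 1 moved the Arhgef11, Sec24b and Dnajc5 levels to 0.318, 0.678 and 0.390. The cause was not tested.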
